A study of Mus musculus with 12 samples.

Results

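The galectin transcripts *Lgals1*, *Lgals3*, *Lgals8*, and *Lgals9*, together with *Lgals3bp*, which encodes a galectin-binding glycoprotein, were followed across the cell types of PyMT breast tumors. These 5 genes were chosen by name out of 31053 genes measured in each of 2 matrices. All mice carried the MMTV-PyMT transgene, in which a mammary-active viral promoter drives an oncogene and breast tumors arise spontaneously. The study compared PyMT-PAR2 WT mice with PyMT-PAR2 G37I mice, whose PAR2 resists signaling by coagulation factor Xa. No further treatment was given. The study's methods describe PyMT mice that were usually killed when tumors had grown to the permitted size, and give ages for the model but not for each of these samples. CD11c-selected cells came from late-stage tumors and CD4/CD8-selected cells from mid-size tumors, with 3 samples per genotype in each selection, bead-selected, frozen, and thawed before capture on the 10x Genomics platform.

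Each matrix holds the 6 samples of 1 selection, and the cell barcodes name no sample, so that each matrix was treated as 1 sample. No genotypes were compared and no test was possible. Transcripts were counted as unique molecular identifiers (UMIs), 1 per captured mRNA molecule, and the level of a gene in a group of cells is its counts per 1000000 UMIs of these cells (CPM). The 95% confidence intervals (CI) cover counting error only. The barcodes pass through the alphabet 6 times in each matrix, and these 6 barcode runs show how far a value varied within a matrix, although nothing ties a run to a sample or genotype. Kept were 11639 CD11c-selected cells with 123642015 UMIs and 22806 CD4/CD8-selected cells with 135965765 UMIs, and 92 barcodes occurred in both matrices. Run 3 of the CD4/CD8-selected cells stood apart, since it held 484 of the 946 macrophages and 287 of the 324 *Gpnmb* macrophages of that matrix. Run 4 of the CD11c-selected cells held only 360 cells, with a median of 31162 UMIs.

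Galectins are lectins that bind β-galactosides on glycoproteins and glycolipids. They are made in the cytosol, leave cells without a signal peptide, and cross-link glycosylated receptors at the cell surface. In tumors they are known as products of macrophages, stromal cells, and cancer cells that can bind inhibitory receptors on T cells. Galectin-1, the product of *Lgals1*, can limit the survival of activated T cells. Galectin-3 (*Lgals3*), also called Mac-2, is a classical marker of macrophages and a ligand of LAG-3. Galectin-8 (*Lgals8*) recognizes glycans exposed on damaged endosomes, and galectin-9 (*Lgals9*) is a ligand of TIM-3, the product of *Havcr2*.

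Cells were gated on raw UMIs of marker genes. Macrophages carried at least 10 UMIs of *C1qa*, *C1qb*, and *C1qc*, and were subdivided by *Lyve1* and *Cd209f*, *Gpnmb*, *Retnla* and *Ear2*, *Thbs1* and *Vegfa*, or *Il10*, in gates that partly overlap and that favor deeply sequenced cells. Of 6926 macrophages in CD11c-selected cells, 2726 fell in at least 1 of these gates and 590 in more than 1. Further markers that no gate used were highest in the named gate for cDC1, migratory DCs, neutrophils, T cells, tumor cells, and fibroblasts. They went against the label in 2 cases. The check markers of monocytes summed to 2897 CPM in the monocyte gate and to 5483 in fibroblasts, and those of cDC2 to 888 in the cDC2 gate and to 2728 in neutrophils. These gates are therefore called the *Ly6c2*/*Chil3* gate and the *Cd209a*/*Flt3* gate. Doublets were not removed, and gates with fewer than 50 cells were left out.

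The 5 genes lie on 4 chromosomes (GRCm38, GENCODE M21). *Lgals1* lies on the plus strand at chr15:78926725-78930465 and *Lgals3* on the plus strand at chr14:47367751-47386160. *Lgals3bp* lies on the minus strand at chr11:118392751-118402092, *Lgals9* on the minus strand at chr11:78962974-78984946, and *Lgals8* on the minus strand at chr13:12439415-12464944. *Lgals8* overlaps *Heatr1* on the opposite strand, while the others overlap no annotated gene. Promoter windows from RefSeq (GRCm38.p6, 250 bases before to 50 after the start site) were at hand for 4 of the 5 genes, the exception being *Lgals1*. The core of the interferon-stimulated response element (GAAA, any 2 bases, GAAA) was searched on both strands and occurred in 1131 of 32851 windows (3.44%). Among the 4 windows only that of *Lgals9* held it, at 2 places on the reverse strand, which start at positions -55 and 16 from the start site. The window of *Lgals3bp* lacked it but held GAAA, any 3 bases, and GAAA at position -17, a spacing that was searched on both strands after the levels had been seen and that occurred in 903 windows (2.75%). The windows of *Lgals9* (chr11:78984875-78985174, minus strand) and *Lgals3bp* (chr11:118401910-118402209, minus strand) are shown because, of the 5 genes, these varied most with interferon-induced transcripts, with the matches in capitals (reverse complement of the motif in *Lgals9*).
Lgals9: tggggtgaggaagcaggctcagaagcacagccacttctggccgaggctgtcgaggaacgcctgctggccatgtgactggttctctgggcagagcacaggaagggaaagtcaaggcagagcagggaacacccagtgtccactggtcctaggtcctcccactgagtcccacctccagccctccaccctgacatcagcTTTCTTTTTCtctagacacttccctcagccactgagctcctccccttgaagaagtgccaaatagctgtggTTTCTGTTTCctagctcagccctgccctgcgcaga
Lgals3bp: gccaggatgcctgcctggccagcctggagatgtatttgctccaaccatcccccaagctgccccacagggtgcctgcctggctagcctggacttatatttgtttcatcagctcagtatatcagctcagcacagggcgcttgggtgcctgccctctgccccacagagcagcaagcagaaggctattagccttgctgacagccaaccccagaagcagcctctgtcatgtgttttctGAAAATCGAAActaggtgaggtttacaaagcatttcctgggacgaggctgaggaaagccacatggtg
A match describes the letters of the window and is no evidence of binding.

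In CD11c-selected cells *Lgals3* was highest in macrophages that express *Gpnmb*, a glycoprotein of lipid-laden macrophages, and lowest in fibroblasts and neutrophils. It reached 5599.7 CPM (CI 5555 to 5645) in 430 *Gpnmb* macrophages, and the 6 barcode runs ranged from 4313 to 6151 with a median of 5455. The *Ly6c2*/*Chil3* gate followed at 3304 (CI 3180.0 to 3431), with runs from 1759 to 6400.1. The *Thbs1*, *Retnla*, and *Il10* macrophages had 2492, 2085, and 1903, each apart from the next beyond counting error. Tumor cells, the carcinoma cells of these tumors, had 1432 (CI 1402 to 1463) and lay near cDC1 with 1339 (CI 1312 to 1366) and the *Cd209a*/*Flt3* gate with 1315 (CI 1275 to 1355), and the last pair did not differ beyond counting error. *Lyve1* macrophages, which resemble resident macrophages, had 849 (CI 820.3 to 879), below tumor cells. Neutrophils (196, CI 149 to 254) and fibroblasts (192, CI 171 to 215) overlapped at the bottom of the order.

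*Lgals1* had another order in these cells, led by fibroblasts, the matrix-producing cells of the stroma. It stood at 1694 CPM (CI 1631 to 1759) in 97 fibroblasts, 2.57-fold the level of all macrophages (CI 2.47 to 2.67), and was higher than in macrophages in 4 of 4 runs with at least 10 fibroblasts. *Gpnmb* macrophages came second at 1428 (CI 1405 to 1451). *Lyve1* macrophages (936, CI 906 to 967) and the *Ly6c2*/*Chil3* gate (888, CI 825 to 955) overlapped. The *Retnla*, *Thbs1*, and *Il10* macrophages lay between 545 and 634. Among DCs the *Cd209a*/*Flt3* gate had 451, cDC1 292, and migratory DCs 132, so that each DC gate was below every macrophage gate. Only 2 UMIs were counted in 95 neutrophils, a level of 6.77 (CI 0.820 to 24.4) and a ratio to macrophages of 0.0103 (CI 0.00124 to 0.0371).

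Fibroblasts and tumor cells thus differed in opposite directions for these genes. In CD11c-selected cells *Lgals1* in tumor cells was 0.0954 times its fibroblast level (CI 0.0886 to 0.103), and *Lgals3* was 7.44-fold higher in tumor cells than in fibroblasts (CI 6.64 to 8.37). The CD4/CD8-selected cells gave 0.0822 (CI 0.0771 to 0.0876) for *Lgals1* and 6.53-fold (CI 5.77 to 7.42) for *Lgals3*. The direction was the same in all 4 runs of the first and all 3 runs of the second matrix that held 10 cells of both gates.

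*Lgals3bp*, whose product is a secreted scavenger receptor cysteine-rich protein that binds galectin-3, was again highest in *Gpnmb* macrophages. It had 636 CPM (CI 621 to 651) there, with runs from 596 to 763. *Lyve1* macrophages (311, CI 294 to 330), fibroblasts (289, CI 263 to 317), and *Il10* macrophages (253, CI 242 to 264) followed, and neighbors in this order overlapped. *Retnla* macrophages were lowest among macrophages at 159 (CI 153 to 166), 0.251 times the *Gpnmb* gate (CI 0.239 to 0.263), and lower in 6 of 6 runs. All 3 DC gates were at 79.9 or less.

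*Lgals9* and *Lgals8*, whose products carry a pair of lectin domains, varied less among macrophages and were lower in DCs. *Lgals9* lay between 85.7 (*Retnla*, CI 81.0 to 90.5) and 127 (*Lyve1*, CI 116 to 139) in the macrophage gates. It fell from 111 in all macrophages to 38.7 in cDC1, 34.4 in the *Cd209a*/*Flt3* gate, and 10.8 (CI 6.92 to 16.1) in migratory DCs, and all macrophages were 10.3-fold above migratory DCs (CI 6.89 to 16.0), in 5 of 5 runs. *Lgals8* stood at 68.1 (CI 60.1 to 76.8) in *Lyve1* macrophages and between 34.3 and 48.0 in the other macrophage gates. It was lowest in cDC1, the DCs that cross-present antigen, with 4.37 (CI 2.97 to 6.20) from 31 UMIs, although the interval of migratory DCs (9.45, CI 5.85 to 14.5) overlapped. All macrophages had 9.04-fold more *Lgals8* than cDC1 (CI 6.35 to 13.3), and the 6 runs gave 3.84- to 17.6-fold.

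**Figure D1:**
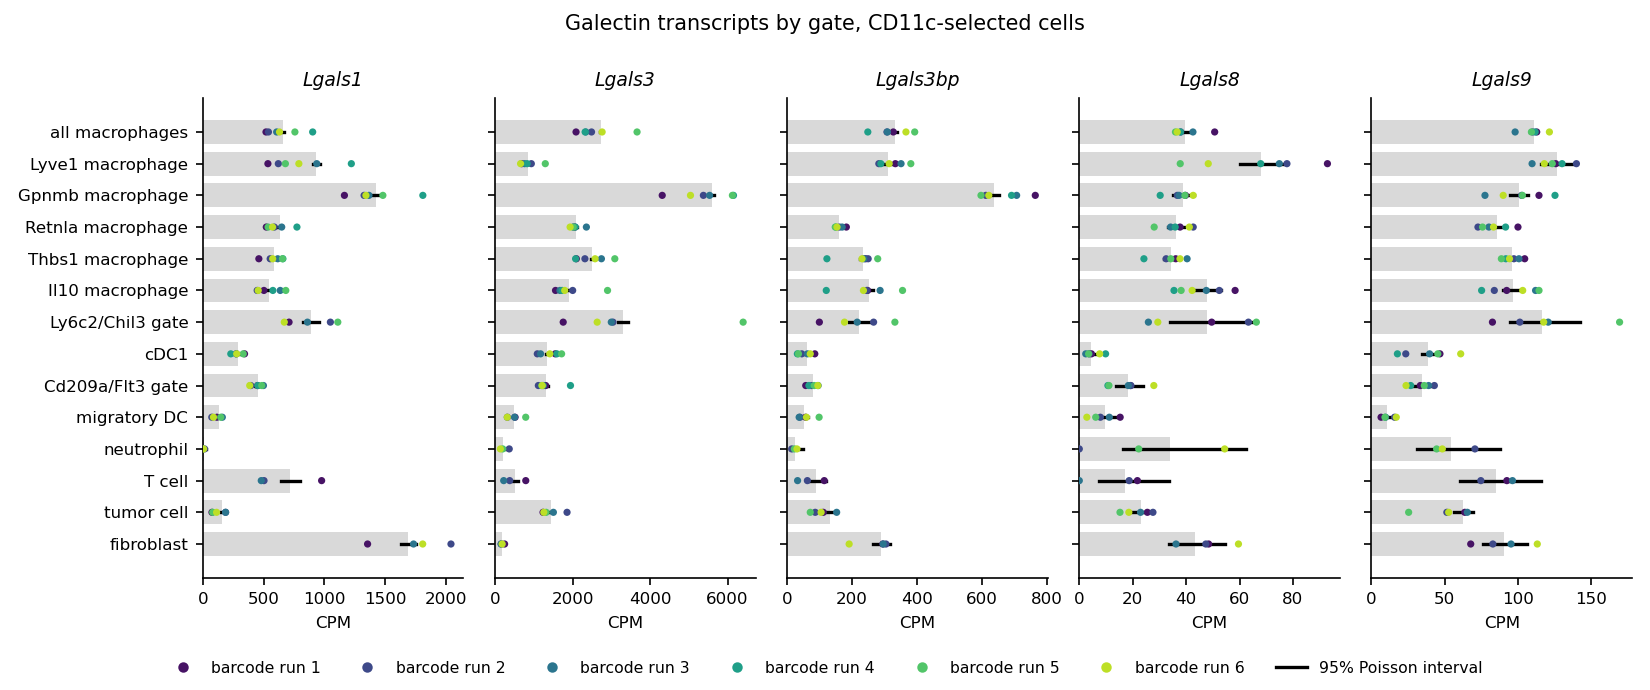
Levels of the 5 genes in 14 gates of CD11c-selected cells, in CPM on linear axes that start at 0. Bars show all cells of a gate together, black lines the 95% Poisson interval, and points the barcode runs with at least 10 cells of that gate. *Lgals3* and *Lgals3bp* peaked in *Gpnmb* macrophages and *Lgals1* in fibroblasts. *Lgals8* and *Lgals9* had their highest pooled level in *Lyve1* macrophages. There the *Ly6c2*/*Chil3* gate overlapped for both, with 47.9 (CI 34.1 to 65.5) for *Lgals8* and 117 (CI 94.4 to 143) for *Lgals9*.

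How much macrophage RNA the other gates carried was read from *Apoe*, *Lyz2*, *Csf1r*, *Ms4a7*, and *Fcgr3*. Their sum was 0.573% of the macrophage level in tumor cells and 2.02% in fibroblasts of the CD11c-selected cells, while *Lgals3* was 52.5% and 7.06% of its macrophage level. In cDC1 the markers were at 3.45% and *Lgals8* at 11.1%, and in migratory DCs they were at 3.04% and *Lgals9* at 9.75%. Neutrophils, which make some of these transcripts themselves, had 10.5%, above the 7.20% of *Lgals3* and the 1.03% of *Lgals1*. In neutrophils this sum therefore cannot be read as carried macrophage RNA alone. At 10.5% of the macrophage level *Lgals1* would be at 69.1 CPM, where 6.77 were measured. Whether neutrophils hold *Lgals3*, *Lgals1*, or *Lgals3bp* beyond such RNA cannot be told from these markers. *Lgals8* and *Lgals9* stood at 85.7% and 48.9%.

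The *Gpnmb* and *Lyve1* macrophage gates, which exclude each other, were compared next. *Lgals3* was 6.59-fold higher in *Gpnmb* than in *Lyve1* macrophages (CI 6.37 to 6.83), and the runs did not overlap, with 4313 to 6151 against 660 to 1297. *Lgals3bp* was 2.04-fold higher (CI 1.92 to 2.17), without overlap between 596 to 763 and 282 to 380.4. *Lgals1* was 1.53-fold higher (CI 1.47 to 1.58) in the pooled cells and 1.46- to 2.18-fold within runs, although the highest *Lyve1* run (1224) exceeded the lowest *Gpnmb* run (1167). *Lgals9* was lower by a small margin, 0.792 times (CI 0.710 to 0.883) and in 6 of 6 runs. *Lgals8* was 0.571 times (CI 0.488 to 0.669) and lower in 5 of 6 runs, the exception being run 5 with 37.8 in *Lyve1* and 39.5 in *Gpnmb* macrophages. Thus 2 of the 5 genes were higher by 2-fold or more and 0 lower, where 8.76% of 7797 genes were higher and 12.2% lower by that size. Without run 4 *Lgals3bp* gave 1.91 and the count was 1. *Gpnmb* macrophages were more deeply sequenced, with a median of 21720 UMIs against 11101. At an equal depth of 2000 UMIs per cell, 98.8% of *Gpnmb* (CI 97.3 to 99.6) and 65.2% of *Lyve1* macrophages (CI 59.1 to 70.9) still had a UMI of *Lgals3*, and the mean per cell was 11.2 against 1.54. The CD4/CD8-selected macrophages, with 324 *Gpnmb* and 50 *Lyve1* cells, gave 5.11-fold for *Lgals3* (CI 4.64 to 5.65), 2.12-fold for *Lgals1* (CI 1.92 to 2.34), and 1.22-fold for *Lgals3bp* (CI 1.06 to 1.42). *Lgals9* was again lower, 0.710 times (CI 0.558 to 0.916), whereas for *Lgals8* the interval included 1 (0.752, CI 0.524 to 1.11). Run 3 of that matrix held 287 of these *Gpnmb* but only 6 of these *Lyve1* macrophages, so that the pooled ratios largely set different runs against each other. Only run 2 there held 10 cells of both gates. In it *Gpnmb* over *Lyve1* macrophages gave 7.27 for *Lgals3*, 1.49 for *Lgals1*, 1.94 for *Lgals3bp*, 0.537 for *Lgals9*, and 1.301 for *Lgals8*.

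**Figure D2:**
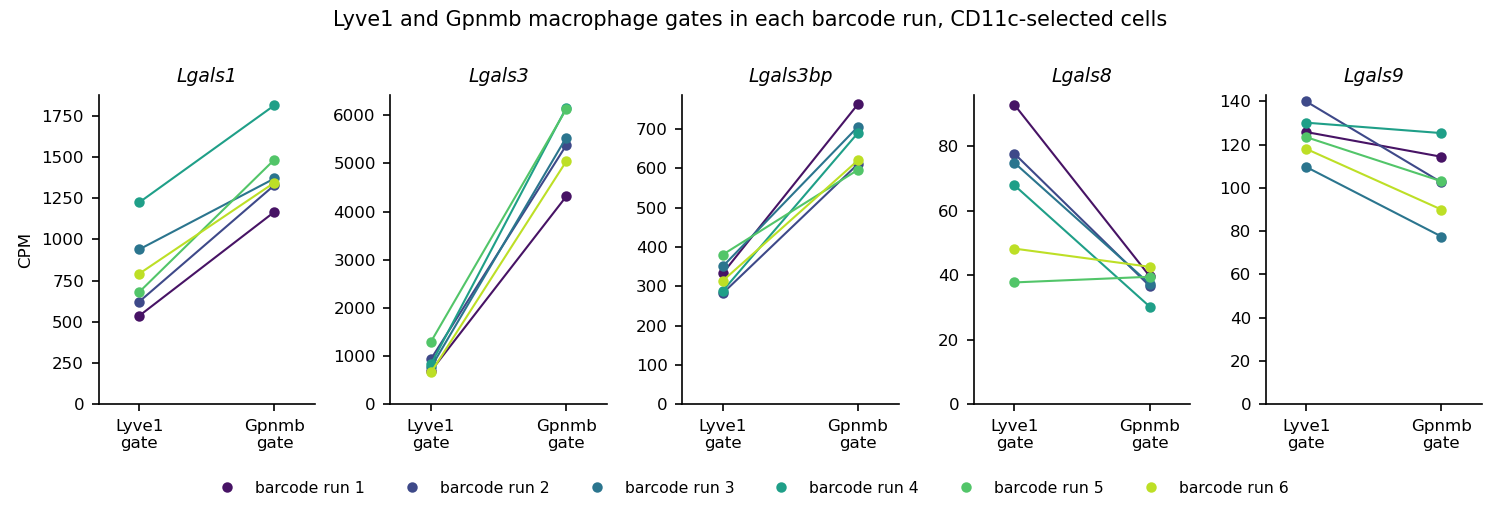
Levels of the 5 genes in *Lyve1* and *Gpnmb* macrophages of CD11c-selected cells, in CPM on linear axes that start at 0. Each line joins the gates of 1 barcode run; *Lgals1*, *Lgals3*, and *Lgals3bp* climbed in 6 of 6 runs, *Lgals9* declined in 6 of 6, and *Lgals8* declined in 5 of 6.

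All macrophages were then ordered, without these gates, by *Gpnmb* among 2000 UMIs drawn from each cell, and 774 shallower cells were left out. From 0 to 4 or more *Gpnmb* UMIs, *Lgals3* went from 2326 to 5522 (2.37-fold, CI 2.34 to 2.41), *Lgals1* from 564 to 1372 (2.43-fold, CI 2.37 to 2.50), and *Lgals3bp* from 288 to 695 (2.41-fold, CI 2.33 to 2.50). Each was higher in 5 of 5 runs. Cells with 1 *Gpnmb* UMI already had 5304 CPM of *Lgals3*. The median depth was 21769 UMIs in the highest and 9366 in the lowest of these groups. *Lgals8* gave 1.03 (CI 0.888 to 1.19) and *Lgals9* 0.842 (CI 0.764 to 0.926).

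*Mrc1*, the mannose receptor of resident and alternatively activated macrophages, ordered the cells the other way for *Lgals3*. Along 0, 1, 2 to 3, and 4 or more *Mrc1* UMIs *Lgals3* stepped down through 3259.8, 2555, 1649.9, and 946 CPM. The last was 0.290 times the first (CI 0.283 to 0.297), and lower in 6 of 6 runs. *Lgals8* rose through 33.7, 37.5, 51.1, and 64.5, a 1.91-fold difference (CI 1.72 to 2.12) seen in 6 of 6 runs. *Lgals1* hardly moved, at 1.04-fold (CI 1.01 to 1.07) and higher in only 3 of 6 runs. *Lgals3bp* was 0.663 times (CI 0.632 to 0.696) and *Lgals9* 0.866 times (CI 0.801 to 0.936) as high, each lower in 6 of 6 runs.

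**Figure D3:**
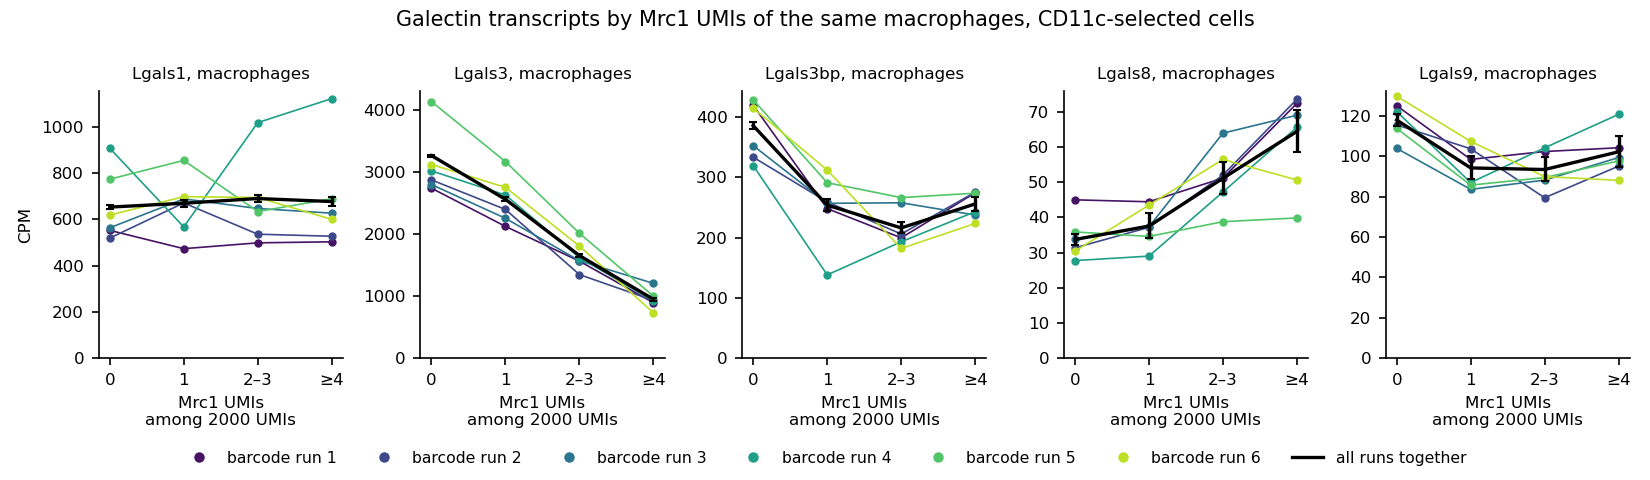
Levels of the 5 genes in CD11c-selected macrophages grouped by *Mrc1* UMIs among 2000 UMIs of the same cell, in CPM on linear axes that start at 0. Black lines join all cells of a group with their 95% Poisson interval and colored lines the barcode runs; *Lgals3* declined from 3259.8 to 946 while *Lgals8* climbed from 33.7 to 64.5.

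Ordered by *Lgals3* itself, macrophages with 10 or more UMIs among 2000 had 2.55-fold the *Lgals1* (CI 2.48 to 2.62) and 1.75-fold the *Lgals3bp* (CI 1.69 to 1.82) of those with 0 or 1. *Lgals9* and *Lgals8* differed little between the same cells, at 1.07-fold (CI 1.00 to 1.15) and 0.895-fold (CI 0.7996 to 1.00). Beside them *Spp1*, which encodes osteopontin, was 16.4-fold and *Fabp5*, a fatty acid carrier, 14.8-fold higher, while *Mrc1* was 0.107 times and *Lyve1* 0.00820 times as high. These 4 genes were chosen with their values known.

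In the CD4/CD8-selected matrix the macrophages carried through the selection were set against CD8 T cells. *Lgals3* was 21.4-fold higher in 946 macrophages (3369.7, CI 3342 to 3397) than in 15589 CD8 T cells (157, CI 155 to 160). Macrophage runs lay between 1910.3 and 3671 and CD8 runs between 128 and 178. *Lgals3bp* was 5.24-fold higher in macrophages (CI 5.07 to 5.42), *Lgals8* 2.04-fold (CI 1.87 to 2.23), and *Lgals9* 1.89-fold (CI 1.79 to 2.00), each in 6 of 6 runs without overlap. Higher by 2-fold or more were therefore 3 of the 5 genes and lower 0, against 23.2% of 8181 genes higher and 24.6% lower. The count includes *Lgals8*, which lay close to the limit and fell below it as a mean over cells (1.95) and without run 6 (1.98), and it leaves out *Lgals9*, which passed it without run 3 (2.23).

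*Lgals1* behaved differently, and its macrophage level rested on 1 run. Over all cells it was 1.46-fold higher in macrophages (1299.7, CI 1283 to 1317) than in CD8 T cells (890.4, CI 884 to 897). In run 3, in which 287 of 484 macrophages were *Gpnmb* macrophages, it was at 1613 in macrophages against 1092 in CD8 T cells. In the other 5 runs macrophages had 195 to 744 and CD8 T cells 780.3 to 921, and macrophages were lower in each. Without run 3 the ratio was 0.722.

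CD8 T cells of this matrix were thus low in *Lgals3* but, outside run 3, above macrophages in *Lgals1*. CD8 T cells held 0.225% of the macrophage level of the 5 macrophage markers, an amount of RNA that would carry 7.59 CPM of *Lgals3*, where 157 were measured. For *Lgals3bp* this amount would be 0.954 (measured 80.9), and for *Lgals9* 0.231 (measured 54.2). At least 1 UMI of *Lgals3* was found in 31.4% of CD8 T cells (CI 30.6 to 32.1, median 4706 UMIs per cell). Among 2000 UMIs the share was 18.0% (CI 17.4 to 18.6), beside 14.7% (CI 14.2 to 15.3) for the macrophage transcript *Apoe* in the same cells. Macrophages of this matrix averaged 5.92 UMIs of *Lgals3* and 83.2 of *Apoe* per cell at this depth. How much of the *Lgals3* in CD8 T cells was free RNA was not tested. The shares at this depth of CD8 T cells were 65.1% for *Lgals1*, 14.2% for *Lgals3bp*, 9.39% for *Lgals9*, and 4.596% for *Lgals8*. The 70 T cells among CD11c-selected cells differed less from macrophages in *Lgals3*, which was 5.28-fold higher in macrophages (CI 4.65 to 6.01). For *Lgals1* macrophages over these T cells gave 0.921 (CI 0.827 to 1.03), with macrophages higher in 2 of 3 runs.

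**Figure D4:**
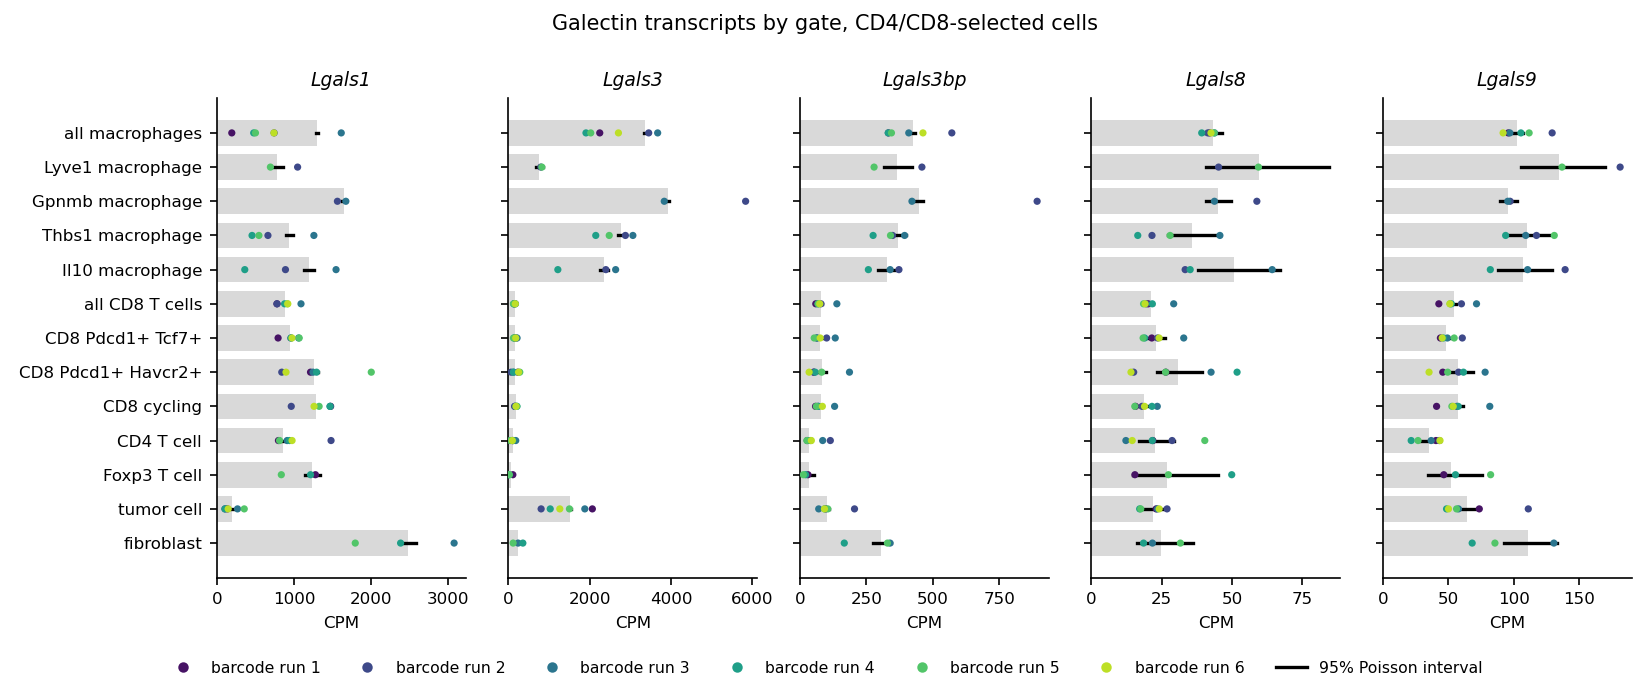
Levels of the 5 genes in 13 gates of CD4/CD8-selected cells, in CPM on linear axes that start at 0. Bars show all cells of a gate together, black lines the 95% Poisson interval, and points the barcode runs with at least 10 cells of that gate. *Lgals3* separated macrophages and tumor cells from T cells, whereas *Lgals1* was lower in macrophages (195 to 744) than in CD8 T cells (780.3 to 921) in all runs but run 3, where macrophages had 1613.

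Within CD8 T cells *Lgals1* was higher in cycling and terminally exhausted profiles than in the progenitor profile. *Pdcd1*+ *Tcf7*+ cells without *Havcr2*, a profile of progenitor exhausted cells, had 952 (CI 932 to 973). *Pdcd1*+ *Havcr2*+ cells without *Tcf7*, a profile of terminal exhaustion, had 1257 (CI 1208 to 1307). Cycling cells had 1283 (CI 1267 to 1300.0), and this last pair overlapped. Both *Pdcd1*+ gates left out cycling cells, which carried 2 or more UMIs of *Mki67* and *Top2a*. The cycling gate exceeded the *Tcf7* gate in 6 of 6 runs (1.35-fold, CI 1.31 to 1.38), while the *Havcr2* gate exceeded the *Tcf7* gate in 4 of 6 runs (1.32-fold, CI 1.26 to 1.38). All CD8 T cells were also grouped by their UMIs of *Mki67* and *Top2a* among 2000. *Lgals1* went from 819 with 0 such UMIs through 1068 with 1 to 1321 with 2 or more. The difference was 1.61-fold (CI 1.58 to 1.65), in 6 of 6 runs. *Lgals3* was 1.23-fold higher in the same cells (CI 1.16 to 1.29), in 5 of 6 runs. For *Lgals8* (CI 0.833 to 1.15), *Lgals9* (1.01, CI 0.917 to 1.11), and *Lgals3bp* (1.06, CI 0.982 to 1.15) the interval included 1. Cells with a UMI of *Havcr2* among 2000 had 1.59-fold the *Lgals1* of those without (CI 1.52 to 1.66). Cells with *Pdcd1* had 1.14-fold (CI 1.12 to 1.16), each in 6 of 6 runs, while *Tcf7* gave 1.00 (CI 0.982 to 1.02). These groupings kept cycling cells, unlike the *Pdcd1*+ gates. Ordered by *Mki67* and *Top2a*, CD11c-selected macrophages gave 0.987 for *Lgals1* (CI 0.9497 to 1.03) and 0.598 for *Lgals8* (CI 0.488 to 0.726), the latter lower in 4 of 5 runs.

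CD4 T cells and *Foxp3* T cells, which are regulatory, differed in *Lgals1* and *Lgals3*. *Foxp3* T cells had 1239 (CI 1145 to 1338) and other CD4 T cells 862 (CI 826 to 899), and the former were higher in 3 of 3 runs with at least 10 cells of both. *Lgals3* was lower in *Foxp3* T cells, 57.7 (CI 38.9 to 82.4) against 116 (CI 103 to 130.0), in 3 of 3 runs but from only 30 UMIs. Among CD4 T cells *Lgals3bp* was 0.442 times (CI 0.355 to 0.544) and *Lgals9* 0.652 times (CI 0.523 to 0.805) the CD8 level, lower in 5 of 6 and 6 of 6 runs.

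Interferon-induced transcripts (*Isg15*, *Ifit1*, *Ifit3*, *Irf7*, *Rsad2*) of the same cells went with *Lgals3bp* and *Lgals9* in both cell types. In CD8 T cells *Lgals3bp* climbed from 54.2 in cells with 0 such UMIs among 2000 through 75.3 and 121 to 242 in cells with 4 or more. The difference was 4.46-fold (CI 4.20 to 4.74), and the runs gave 3.90- to 5.41-fold. *Lgals9* climbed from 47.3 to 106 (2.24-fold, CI 2.06 to 2.43) and *Lgals8* from 18.6 to 39.3 (2.11-fold, CI 1.84 to 2.41), each in 6 of 6 runs. *Lgals1* declined to 0.844 times (CI 0.821 to 0.867) in 6 of 6 runs, and *Lgals3*, at 0.881 times (CI 0.825 to 0.940), was lower in 4 of 6. By a limit of 1.5-fold, 3 of the 5 genes were higher and 0 lower, beside 5.51% of 6981 genes higher and 4.14% lower.

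In CD11c-selected macrophages *Lgals3bp* went from 272 through 372 and 465 to 541 CPM (1.99-fold, CI 1.91 to 2.08) and *Lgals9* from 101 to 165 (1.62-fold, CI 1.51 to 1.75), each in 5 of 5 runs. *Lgals8* was 1.41-fold higher (CI 1.24 to 1.61), also in 5 of 5. *Lgals3* was 1.46-fold higher (CI 1.44 to 1.49) but only in 4 of 5 runs, with run 3 at 0.967. Here 2 of the 5 genes passed 1.5-fold upward and 0 downward, beside 5.72% of 7432 genes higher and 3.55% lower.

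For *Lgals3bp* and *Lgals9* the pattern also held inside narrower gates, where cells with 2 or more interferon-induced UMIs were set against cells with 0. *Lgals3bp* was higher in all 8 gates with at least 50 cells in both groups, from 1.32-fold in *Gpnmb* macrophages to 3.25-fold in *Pdcd1*+ *Havcr2*+ CD8 T cells. The cDC1 gate, the *Cd209a*/*Flt3* gate, and tumor cells of the CD11c-selected matrix held too few cells for this comparison. *Lgals9* was higher in the same 8 gates, and every interval lay above 1. It went from 1.303-fold in the macrophages of CD4/CD8-selected cells to 2.11-fold in CD4 T cells, where only 2 runs (1.85- and 2.37-fold) held enough cells. In cycling CD8 T cells 1 of 6 runs went the other way. Of *Lgals8* the interval lay above 1 in 4 of the 8. *Lgals3* was not higher throughout the macrophage gates. It gave 1.16-fold in *Gpnmb* macrophages (CI 1.14 to 1.19, higher in 4 of 4 runs) and 1.15-fold in *Lyve1* macrophages (1 of 4 runs). Macrophages of CD4/CD8-selected cells gave 1.08-fold (2 of 4 runs) and *Retnla* macrophages 0.895 times (CI 0.865 to 0.926, higher in 3 of 6 runs). The promoter windows of *Lgals3bp* and *Lgals9* are those printed above, and the windows of *Lgals3* and *Lgals8* held neither motif. Without a match *Lgals8* was still 2.11-fold higher in CD8 T cells with 4 or more interferon-induced UMIs, and *Lgals1* had no window. Whether a match bears on these levels was not tested.

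**Figure D5:**
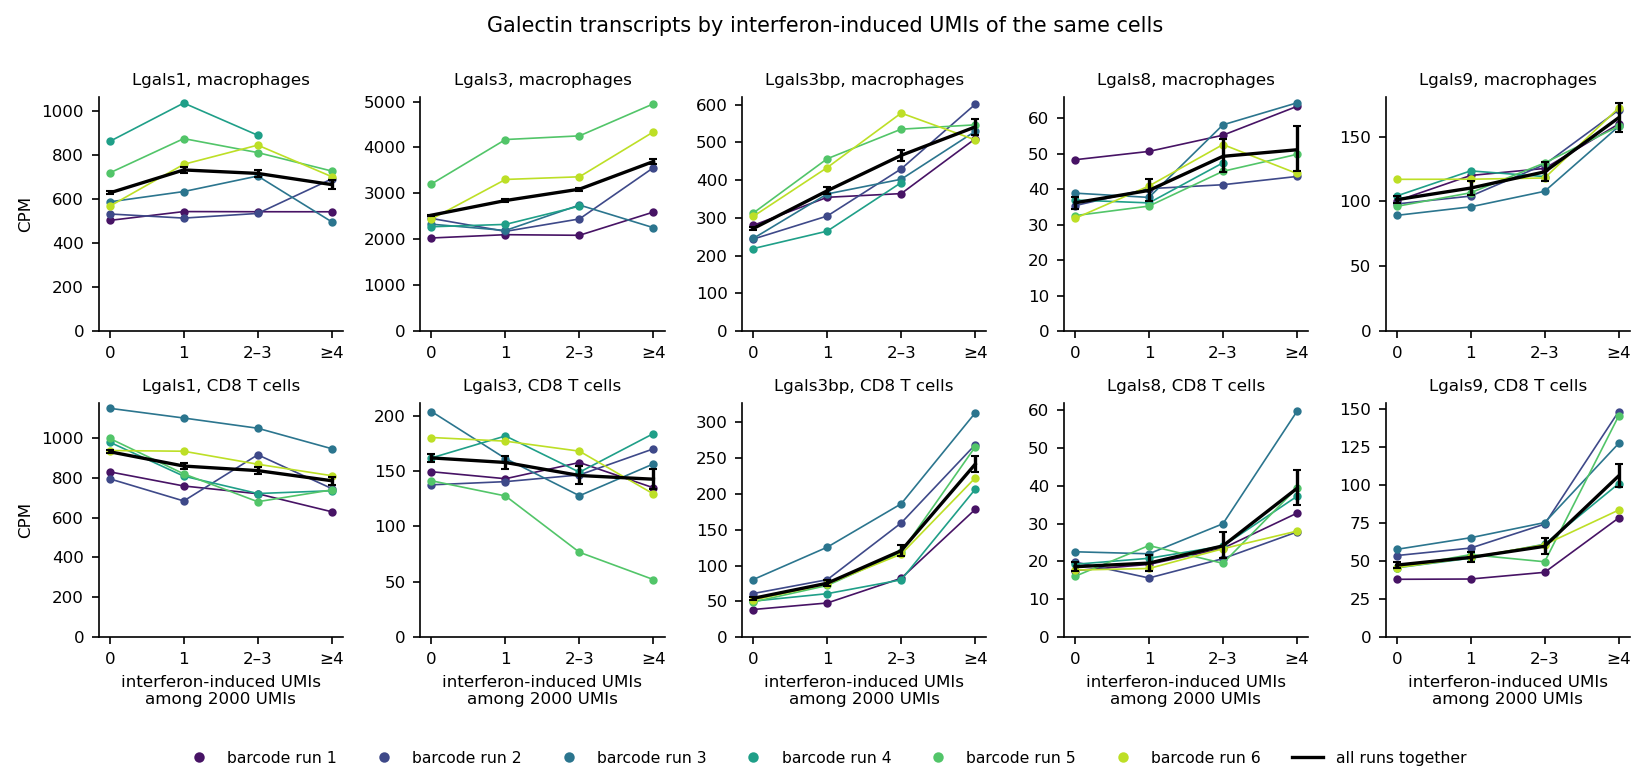
Levels of the 5 genes in CD11c-selected macrophages (top) and CD4/CD8-selected CD8 T cells (bottom), grouped by the interferon-induced UMIs among 2000 UMIs of the same cell, in CPM on linear axes that start at 0. Black lines join all cells of a group with their 95% Poisson interval and colored lines the barcode runs with at least 10 cells; *Lgals3bp* reached 541 and 242, from 272 and 54.2.

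Run 3 of the CD4/CD8-selected cells also stood apart for *Lgals3bp* in CD8 T cells, at 139.6 against 60.4 to 79.9 in the other runs. Its interferon-induced transcripts were the highest as well, 921 CPM against 317 to 667. Among its CD8 T cells with 0 such UMIs *Lgals3bp* was at 80.4, against 38.6 to 60.9 in the other runs. The part of these transcripts, or of the macrophages in this run, in that level was not tested.

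Counter-receptors of galectins were read from a list of 13 genes. In the CD4/CD8-selected matrix 8 were higher by 2-fold or more in macrophages and 4 in CD8 T cells, where 23.2% of 8181 genes were higher and 24.6% lower in macrophages. The median log2 fold of the list was 1.69 against -0.18 over all genes. The largest differences were those of *Pdpn*, which encodes the sialoglycoprotein podoplanin (149 in macrophages, 0.364 in CD8 T cells), *Itgam*, the integrin CD11b (207 against 0.717), *Cd7*, a galectin-1 receptor of T cells (1.18 against 112), and *Lamp1*, a lysosomal glycoprotein (1224 against 79.5). Of 11 genes expressed highly enough between *Gpnmb* and *Lyve1* macrophages, 3 were higher and 1 lower by 2-fold, beside 8.76% and 12.2% of 7797 genes. *Havcr2*, the TIM-3 gene, was 8.84-fold higher in macrophages than in CD8 T cells (85.4 against 9.65), and was singled out after its values were seen.

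Enzymes and transporters that build or cap the glycans that galectins bind were read from a list of 18, of which 16 were expressed highly enough. Here 7 were higher in macrophages and 2 in CD8 T cells, beside the same 23.2% and 24.6% of all genes, and the median log2 fold was 0.88 against -0.18 over all genes. *Gcnt2*, which branches poly-N-acetyllactosamine, was 17.9-fold higher in macrophages (35.3 against 1.97), and *St6gal1*, whose α2,6-sialic acid blocks galectin-1, 15.3-fold (40.7 against 2.65). *St3gal1* was 9.04-fold and *Gcnt1*, a core-branching enzyme of O-glycans, 7.24-fold higher. Between *Gpnmb* and *Lyve1* macrophages 3 of 17 were higher and 4 lower, beside 8.76% and 12.2% of all genes, and the median log2 fold was -0.14 against -0.02 over all genes.

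Across gates the members did not move as 1 group. Pearson's r of log2 levels (1 CPM added) is given as a description over 12 gates of CD11c-selected and 12 of CD4/CD8-selected cells, which share the libraries and partly share cells. *Lgals3bp* and *Lgals9* gave 0.714 and 0.940, while *Lgals1* and *Lgals3* gave 0.505 and -0.273. In CD11c-selected cells *Lgals3* was most like *Kcnn4* (0.955), *Rnh1*, *Ten1*, *Ndufc2*, and *Parp1*, and in CD4/CD8-selected cells most like *Msrb1* (0.984), *Slc25a37*, *Abcc3*, *Sppl2a*, and *Hsd17b12*. *Lgals3bp* was most like *Nfic* (0.955), *Tnfsf12*, *Tspan31*, *Bst2*, and *Tspan4* in the first matrix, and like *Rab32* (0.964), *Mitf*, *Gna12*, *Fuca1*, and *Igf1* in the second. *Lgals1* was most like *Anxa5* (0.938), *Cmtm3*, *Nrp1*, *Ifi203*, and *Tspan31*, and in the second matrix like *Fgl2* (0.886), *Vim*, *Il3ra*, *Apbb1ip*, and *Eif1b*. *Lgals8* was most like *Gbp7* (0.945), *Lamp2*, *Rtp4*, *Oasl2*, and *Adam9*, and in the second matrix like *Lst1* (0.931), *Chmp4b*, *Clec4a3*, *Mtmr6*, and *Ccr1*. *Lgals9* was most like *Mfsd5* (0.930), *Rars*, *Sdhc*, *Sash1*, and *Mcfd2*, and in the second matrix like *Leprot* (0.957), *Fcgrt*, *Agtrap*, *Adam9*, and *Lamtor3*. In the other matrix r was -0.0047 for *Kcnn4* with *Lgals3* and -0.045 for *Anxa5* with *Lgals1*, but 0.904 for *Nfic* and 0.942 for *Tspan4* with *Lgals3bp*.

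Other galectin genes were counted over each whole matrix. *Lgals7*, a galectin of stratified epithelia, had 2179 UMIs in 377 CD11c-selected cells and 5263 in 740 CD4/CD8-selected cells. *Lgalsl* had 847 and 1894 UMIs and *Lgals4* 127 and 414, and *Lgals2*, *Lgals12*, and *Grifin* had between 11 and 24 UMIs in each matrix. *Lgals6* was looked for but was not among the genes of either matrix.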

How the data were processed

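Per the labels, RNA of single cells was captured on the 10x Genomics platform. The files the authors deposited hold raw UMI counts, 1 whole number for each gene in each cell and 1 matrix for each selection, and the submitters' processing notes name Cell Ranger 3.0.2 and mm10. A barcode needed 200 detected genes, which removed 341 and 295 barcodes. UMIs were summed per gate and scaled to 1000000, and only gates with at least 50 cells are reported. Gates other than macrophages carried fewer than 5 C1q UMIs and at least a minimum of their own markers: *Ly6c2* and *Chil3*, *Xcr1* and *Clec9a* (cDC1), *Cd209a* and *Flt3*, *Ccr7* and *Fscn1* (migratory DCs), *S100a8* and *S100a9* (neutrophils), CD3 genes (T cells), keratins and *Epcam* (tumor cells), or collagens (fibroblasts). Poisson intervals of levels, Clopper-Pearson intervals of shares, and conditional binomial intervals of ratios are exact and cover counting error only. For shares and for grouping by another gene, each cell was thinned at random to 2000 UMIs, and shallower cells were left out. The levels of such groups were taken from all UMIs of their cells. Genes with at least 10 CPM in either group entered counts of folds.

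Named are the 5 genes in every gate, the other galectins, the 5 genes most like each member among those reaching 50 CPM, and the 4 genes of each list with the largest fold between macrophages and CD8 T cells. Genes, lists, and gate markers were chosen with earlier results of these data known. The minimums of the gates, the grouping by *Mrc1*, and the motif with 3 free bases were chosen after levels had been seen. Alternatives were at least 500 detected genes, doubled gate minimums, means over cells, and the 5% of cells with most UMIs left out, and leaving out each barcode run was added after seeing the data. The ratio was tested on simulated data. Symbols of 30431 genes (98.0%) matched GENCODE M21. Python 3.11.15, numpy 2.4.6, scipy 1.17.1, pandas 2.3.3, and matplotlib 3.10.9 were used. Genotypes were not compared, because the barcodes name no sample. A further gate of CD8 T cells is not reported here.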

Additional observations from a re-analysis of the deposited data

Results flagged for a closer look

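The 5 genes were examined across the 6 barcode runs in macrophages of both matrices and in CD8 T cells, and 2 of these 15 values, both in CD8 T cells, had a run far from the others. *Lgals3bp* was at 139.6 CPM in run 3, with the nearest run at 79.9 and the farthest at 60.4, and the gap took 0.754 of the range. *Lgals8* was at 29.3 in the same run, with the nearest run at 21.7 and the farthest at 18.6 (0.709 of the range). Chance gives such a gap in about 1 of 20 groups of values.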

How the results depend on the processing

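The 10 ratios (macrophages over CD8 T cells, and *Gpnmb* over *Lyve1* macrophages, for each gene) kept their direction under all 40 alternatives, and 31 moved by less than the counting interval. With doubled gate minimums the ratio of macrophages to CD8 T cells was 1.40 for *Lgals1* and 20.8 for *Lgals3*, and that of *Gpnmb* to *Lyve1* macrophages 1.43 for *Lgals1*. As means over cells, macrophages over CD8 T cells gave 1.29 for *Lgals1*, 19.8 for *Lgals3*, and 4.71 for *Lgals3bp*, and *Gpnmb* over *Lyve1* macrophages gave 1.67 for *Lgals1* and 7.44 for *Lgals3*. With the 5% deepest cells left out, *Lgals3* gave 22.2 between macrophages and CD8 T cells.

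Leaving out each barcode run, an alternative added after seeing the data, reversed 1 ratio. *Lgals1* in macrophages over CD8 T cells ranged from 0.722, without run 3, to 1.52. The same ratio ranged from 17.7 to 22.5 for *Lgals3*, 4.95 to 6.39 for *Lgals3bp*, 1.98 to 2.11 for *Lgals8*, and 1.81 to 2.23 for *Lgals9*. *Gpnmb* over *Lyve1* macrophages ranged from 1.44 to 1.99 for *Lgals1*, 6.41 to 6.72 for *Lgals3*, 1.91 to 2.18 for *Lgals3bp*, 0.537 to 0.604 for *Lgals8*, and 0.776 to 0.809 for *Lgals9*. The cause was not tested. *Lgals8* was below 2-fold between macrophages and CD8 T cells as a mean over cells (1.95), without the deepest cells (1.99), and without run 6 (1.98). No paired analysis was possible because the barcodes name no sample and no test was made. Depth limits values that rest on few UMIs, among them 2 of *Lgals1*, 7 of *Lgals3bp*, and 10 of *Lgals8* in neutrophils and 31 of *Lgals8* in cDC1.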
